A study of Mus musculus with 2 samples.

Results

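Gata3 (ENSMUSG00000015619.10) lies at chr2:9857078-9890034 of mm10, on the minus strand, and was examined over its gene body and 400 kb on each side, 832.957 kb in all (chr2:9457078-10290034). It is 1 of 21938 protein-coding genes, and its locus held 42 of 60644 peaks in the library labelled as replicate 2 and 15 of 85367 peaks in the library labelled as replicate 1. The peaks, footprints and FDR intervals were taken by position, around a gene chosen with earlier results of these data known. DNase-seq reads out where the nuclease DNase I can reach and cut chromatin: a peak is an open stretch, and a footprint is a short run within open chromatin that is cut less than its surroundings. The thymus tissue was from male B6CASTF1/J mice, an F1 hybrid, aged 36 days, with no treatment named in the labels. Both libraries form 1 group, and although they are labelled as separate biological replicates they carry the same donor identifier. No test over samples is possible with 2 libraries, and the values below are descriptions.

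GATA3 is a zinc finger transcription factor that binds GATA sequences in DNA. It is needed for early T cell progenitors to enter the T lineage, later for the CD4 lineage, and in mature T cells it directs the T helper 2 programme. Its T cell expression depends on enhancers far from the promoter, and one such element, about 280 kb 3' of the gene, is known from mouse work to act in T and natural killer cells. Outside the immune system GATA3 acts in kidney, inner ear, mammary gland and sympathetic neurons.

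The libraries did not hold the same cell type markers. Of 20 T cell markers, 19 had a promoter peak in the library labelled as replicate 2 and 3 in the library labelled as replicate 1 (Cd247, Lck and Cd28), with summed promoter signals of 109.2 and 6.99. The sums over all protein-coding genes were 118001 and 68634, and since the scaling of the signal is not known the sums are not compared between libraries. Cd3d, Cd3e, Cd3g, Cd4, Cd8a, Rag1 and Rag2 had none in the library labelled as replicate 1. Of 14 pancreas acinar markers, 5 had a promoter peak in the library labelled as replicate 2 and 14 in the library labelled as replicate 1, with summed signals of 12.9 and 75.4. Ptf1a, Cpa1, Ctrb1 and Pnlip were among those with none in the library labelled as replicate 2. Thymic epithelium markers were open at 6 and 7 of 12, and islet markers at 0 and 4 of 9, in the libraries labelled as replicate 2 and replicate 1. Among all protein-coding genes 60.1% and 63.1% had a promoter peak. The library labelled as replicate 1 thus goes against its label at T cell genes, so every value is given for each library by itself. The part that these marker differences had in the results below was not tested. In whole tissue, fewer cells with an open site and less opening per cell cannot be told apart.

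Open sequences that carry the results are shown here on the strand of Gata3, 5' to 3', from GRCm38.p6. They are the strongest promoter peak, the bases just upstream of the main start, the strongest and second peaks of a cluster 3' of the gene, and a peak on the 5' side that both libraries share. Capitals mark the bases inside footprints of the library labelled as replicate 2.
Upstream promoter peak, chr2:9879561-9879800: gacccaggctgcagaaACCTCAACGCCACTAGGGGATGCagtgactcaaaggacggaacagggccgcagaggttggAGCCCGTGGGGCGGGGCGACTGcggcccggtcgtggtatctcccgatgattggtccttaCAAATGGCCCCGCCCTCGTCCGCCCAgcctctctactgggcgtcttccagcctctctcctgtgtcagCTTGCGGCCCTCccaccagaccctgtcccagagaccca
Upstream part of the main start peak, chr2:9878601-9878740: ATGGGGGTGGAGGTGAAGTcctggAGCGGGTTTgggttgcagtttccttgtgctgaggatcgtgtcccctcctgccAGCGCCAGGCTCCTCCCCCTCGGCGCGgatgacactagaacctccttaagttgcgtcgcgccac
Strongest peak of the 3' cluster, chr2:9594081-9594320: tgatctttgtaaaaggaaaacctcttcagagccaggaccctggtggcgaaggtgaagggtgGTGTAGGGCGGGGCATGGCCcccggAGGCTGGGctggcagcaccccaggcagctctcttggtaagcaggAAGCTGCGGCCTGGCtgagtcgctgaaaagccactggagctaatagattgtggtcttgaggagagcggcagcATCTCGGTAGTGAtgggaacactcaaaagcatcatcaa
Second peak of the 3' cluster, chr2:9595321-9595540: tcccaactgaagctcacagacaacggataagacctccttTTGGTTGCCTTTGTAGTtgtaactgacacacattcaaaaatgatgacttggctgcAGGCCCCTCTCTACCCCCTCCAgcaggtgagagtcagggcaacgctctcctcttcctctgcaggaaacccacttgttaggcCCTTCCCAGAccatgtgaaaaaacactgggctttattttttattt
Shared peak on the 5' side, chr2:10142841-10143000: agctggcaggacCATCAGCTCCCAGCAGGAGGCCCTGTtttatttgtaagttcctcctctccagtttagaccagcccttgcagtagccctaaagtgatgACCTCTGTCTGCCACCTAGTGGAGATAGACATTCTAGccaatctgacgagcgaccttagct
Positions within these sequences are counted from 1 at the 5' end.

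The Gata3 promoter was open in both libraries, and its place among the promoters of each library differed widely. Its highest promoter signal was 13.6 in the library labelled as replicate 2, the 77.6th percentile (rank 2948) of 13176 genes with a promoter peak. It was 2.77 in the library labelled as replicate 1, the 26.4th percentile (rank 10185) of 13843 such genes. Signals are the authors' own peak values, and since their scaling is not known they are compared only within a library. In both libraries the highest value came from the upstream promoter peak, at chr2:9879561-9879800 in the library labelled as replicate 2 and chr2:9879521-9879820 in the library labelled as replicate 1. Its midpoint lies 1.08 kb upstream of the start of the main transcript, Gata3-201, at base 9878600, and its near edge 961 bp upstream. With windows of 500 bp in place of 1 kb this peak falls out, and the promoter signal was 6.33 in the library labelled as replicate 2 with no promoter peak in the library labelled as replicate 1. The lowest false discovery rate (FDR) at the upstream promoter peak was 1.64e-97 in the library labelled as replicate 2 and 5.70e-16 in the library labelled as replicate 1.

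Of 4 footprints in the upstream promoter peak in the library labelled as replicate 2, 23, 22, 26 and 12 bp wide, the first 3 overlapped footprints of the library labelled as replicate 1. The first held CACTAGGGG at bases 27 to 35, a sequence that resembles the centre of the binding site of CTCF, a factor that shapes chromatin loops. The core of the CTCF site, as searched below, had 0 matches in this peak in either library. The second footprint held GGGCGG at bases 85 to 90, a GC box of the kind bound by SP factors, and the third held its complement CCGCCC at bases 145 to 150 and 155 to 160. CACTAGGGG and GGGCGG were chosen after the sequences had been read. They were in 1.15% and 26.7% of the 200 bp windows of all peaks in the library labelled as replicate 2. An AP-1 sequence, TGACTCA, at bases 42 to 48 lay outside every footprint of the library labelled as replicate 2, while a 7 bp footprint of the library labelled as replicate 1 began at base 47.

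The main start itself was called open in the library labelled as replicate 2 alone. Its peak there, chr2:9878541-9878740, had a signal of 6.33, the 84.3rd percentile of all peaks in that library, and a lowest FDR of 6.93e-42. The library labelled as replicate 1 had no peak there in its shorter list and a signal of 0.635 in its longer list, which also holds weaker peaks. Its FDR fell to 0.00831, over 189 bases below 0.05, and it listed 3 footprints in the stretch. The main start is therefore marked in both libraries by FDR intervals and footprints and in one of them by a peak of the shorter list. The peak at the main start held 1 GATA sequence of those searched below, 3' of the start and outside the bases shown. It lay in or within 4 bp of a 21 bp footprint of the library labelled as replicate 2. That footprint overlapped a footprint of the library labelled as replicate 1. Of the 6 annotated transcripts, Gata3-201 had 4 peaks within 1 kb of its start in the library labelled as replicate 2 and 1 in the library labelled as replicate 1. Gata3-206 had 2 and 0, and Gata3-205 had 1 and 0. Gata3-204 had none in either library.

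**Figure D1:**
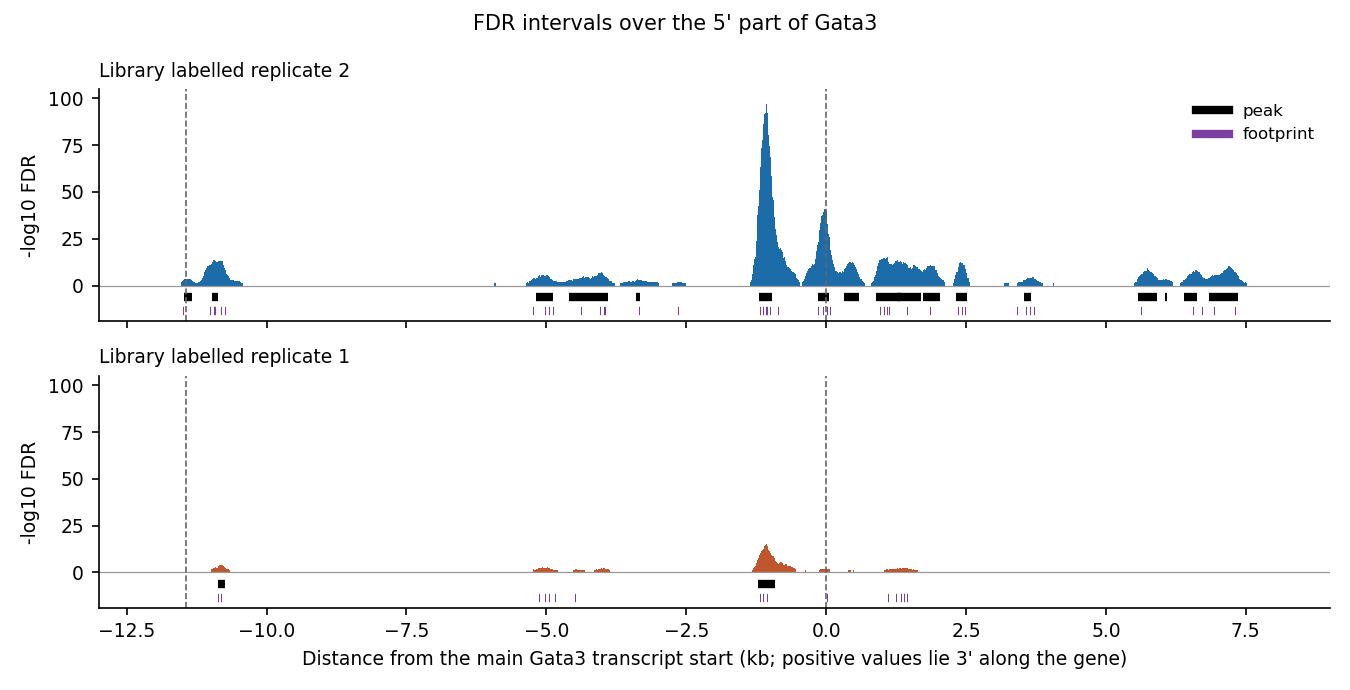
FDR intervals around the Gata3 starts, as -log10 FDR against distance from the main start in kb (positive lies 3'), in the library labelled as replicate 2 above and the library labelled as replicate 1 below. Black bars are peaks, purple ticks footprints, and dashed lines the main and the most distal start; the upstream promoter peak is the tallest in both, with a lowest FDR of 1.64e-97 and 5.70e-16.

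A pair of transcripts, Gata3-202 and Gata3-203, start about 11.4 kb upstream of the main start. Here the library labelled as replicate 2 had peaks at chr2:9889461-9889580 (signal 2.36) and chr2:9889937-9890079 (1.09), and the library labelled as replicate 1 had 1 peak at chr2:9889342-9889460 (1.00). The peaks of the libraries abut without sharing a base. At the peak of the library labelled as replicate 1, the library labelled as replicate 2 had an FDR as low as 2.98e-14. At chr2:9889461-9889580, the library labelled as replicate 1 had one as low as 0.000424, and at chr2:9889937-9890079 it had no FDR interval. DNase-seq has no strand, and these peaks also lie at starts of 9230102O04Rik, which overlaps Gata3, so they cannot be assigned to one gene.

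Within the gene body, the library labelled as replicate 2 had 18 peaks and the library labelled as replicate 1 had 2, with 1 region shared. That is 54.6 and 6.07 peaks per 100 kb. The broadest peak, chr2:9876901-9877700, had a signal of 2.60 and 11 footprints in the library labelled as replicate 2. Another listed peak of that library, chr2:9877261-9877340, lay wholly inside it, and both are counted as peaks throughout. Merged by overlap, gene body regions numbered 16 in the library labelled as replicate 2 alone, 1 in the library labelled as replicate 1 alone and 1 in both. In the longer lists the gene body held 19 peaks in the library labelled as replicate 2 and 9 in the library labelled as replicate 1. Of these, 9 in each library overlapped a peak of the other. At chr2:9876901-9877700 the library labelled as replicate 1 had no peak but an FDR as low as 0.00311 over 608 bases, and 5 footprints. Peaks at chr2:9878021-9878280 (signal 2.32), chr2:9876081-9876280 (2.27) and chr2:9876561-9876860 (1.97) lay near this stretch and were called in the library labelled as replicate 2 alone. The antisense gene Gm13256 overlaps this stretch, and its starts cannot be told apart from those of Gata3 here. Farther into the gene, 3 intronic peaks at chr2:9871241-9871760 (1.76), chr2:9871981-9872200 (1.46) and chr2:9872501-9872545 (0.863) lay 7.10, 6.51 and 6.08 kb 3' of the main start. None of these 3 held an FDR interval of the library labelled as replicate 1. Upstream, 4 peaks between chr2:9881921 and chr2:9883780 lay at starts of 4930412O13Rik and 9230102O04Rik, with signals of 0.832 to 1.56 in the library labelled as replicate 2. The library labelled as replicate 1 had an FDR interval at 3 of these, down to 0.000898.

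The libraries had unlike numbers of peaks on the 3' flank and like numbers on the 5' flank. The 3' flank had 13 peaks in the library labelled as replicate 2 and 1 in the library labelled as replicate 1, and no region was shared. The 5' flank had 11 and 12, and 7 regions were shared. Of the 48 regions of the locus, 8 had a peak in both libraries, 33 in the library labelled as replicate 2 alone and 7 in the library labelled as replicate 1 alone. Counted as peaks, 8 of 42 in the library labelled as replicate 2 and 8 of 15 in the library labelled as replicate 1 overlapped a peak of the other library, against 60.6% and 43.1% of all peaks. The longest stretch between neighbouring peaks was 135.0 kb in the library labelled as replicate 2, on the 5' side, and 258.6 kb in the library labelled as replicate 1, ending at the upstream promoter peak. Median peak signal in the locus was 1.48 against 1.71 for all peaks in the library labelled as replicate 2, and 1.23 against 1.28 in the library labelled as replicate 1.

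**Figure D2:**
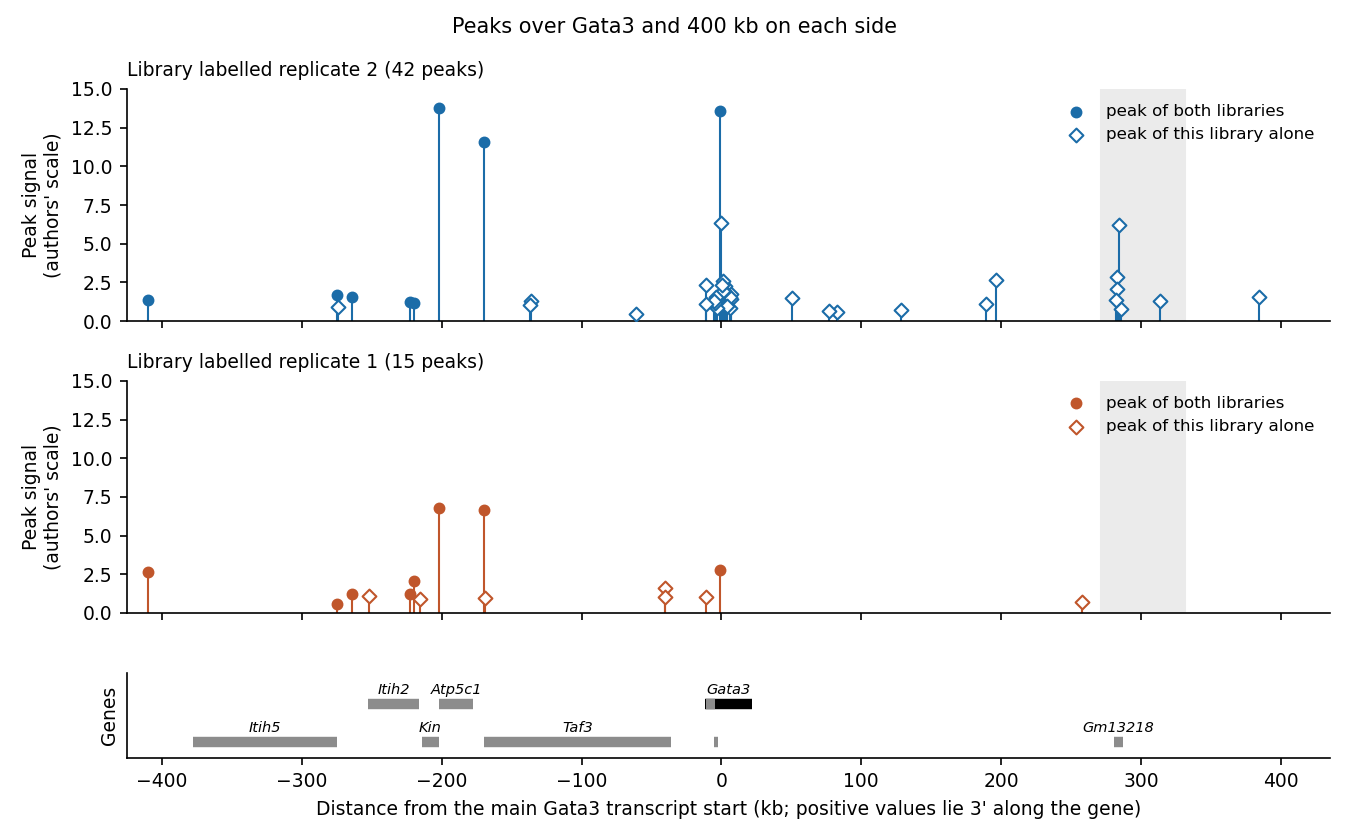
Peak signal on the authors' scale against distance from the main Gata3 start in kb (positive lies 3'), in the library labelled as replicate 2 above and the library labelled as replicate 1 below, with filled circles for peaks of both libraries, open diamonds for peaks of one, and genes as bars at the bottom (unlabelled bars are genes overlapping Gata3). The grey band is the window around 280 kb beyond the gene's 3' end, which holds 6 peaks above and 0 below.

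The 3' side was led by a cluster inside an intron of the long noncoding RNA gene Gm13218 (chr2:9591219-9597843), whose role is not given here. The cluster spans chr2:9592850-9596562, 260.5 to 264.2 kb beyond the 3' end of Gata3 and 282.0 to 285.8 kb from its main start. It held 5 peaks in the library labelled as replicate 2 and 0 in the library labelled as replicate 1. Its strongest peak, chr2:9594081-9594320, had a signal of 6.21 in the library labelled as replicate 2, the 84.0th percentile of its peaks, and a lowest FDR of 1.25e-43. That is the highest signal of any distal peak in the locus, and it is close to the 6.33 of the main start in the same library. The others were chr2:9595321-9595540 (2.85), chr2:9595561-9595740 (2.07), chr2:9596123-9596562 (1.38) and chr2:9592850-9592938 (0.786).

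In the cluster 22 footprints were listed in the library labelled as replicate 2 and 0 in the library labelled as replicate 1. Bases with an FDR below 0.05 numbered 2935 and 70, and at an FDR of at most 0.001 there were 2119 and 0. The lowest FDR of the library labelled as replicate 1 in the cluster was 0.0113, at the peak nearest to Gata3. Its longer list held 1 peak there, of signal 0.165, against 7 longer-list peaks in the library labelled as replicate 2. Within 30 kb of the point 280 kb beyond the 3' end of the gene, peaks numbered 6 and 0, footprints 31 and 0 and bases below an FDR of 0.05 numbered 4045 and 70, in the libraries labelled as replicate 2 and replicate 1. With depth unknown, a site not listed as open is not shown to be closed.

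**Figure D3:**
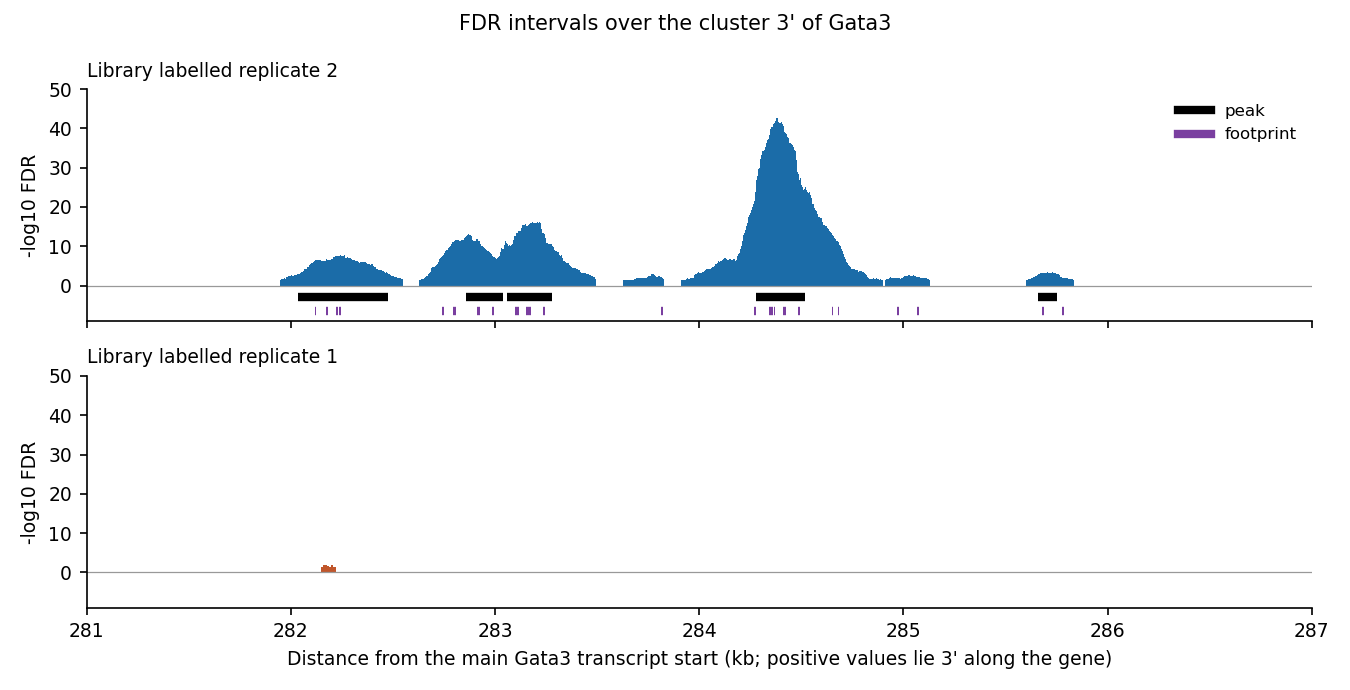
FDR intervals over the cluster inside Gm13218, as -log10 FDR against distance from the Gata3 main start in kb, in the library labelled as replicate 2 above and the library labelled as replicate 1 below, with black bars for peaks and purple ticks for footprints. The lowest FDR is 1.25e-43 above and 0.0113 below, where no peak or footprint is drawn.

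The strongest cluster peak held footprints of 20, 8, 15 and 13 bp. It had an ETS sequence, AAGGAA, at bases 13 to 18 and another, CAGGAA, at bases 127 to 132, of which 2 bases lay in a footprint. ETS factors act throughout the T lineage. A RUNX sequence, TGTGGT, lay at bases 179 to 184 outside the footprints, and GGGCGG at bases 67 to 72 lay inside one. None of the GATA sequences searched (AGATAA or AGATAG or TGATAA or TGATAG, on both strands) was in it. The second peak had CAGGAA at bases 155 to 160 and the E protein sequence CAGGTG at bases 118 to 123, both outside footprints. These matches are descriptions and do not show that a factor was bound.

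Beyond the cluster, the library labelled as replicate 2 had 8 more peaks on the 3' side, all between genes. The strongest was chr2:9681721-9682120, 196.7 kb from the main start, with a signal of 2.63. The farthest were 384.6 kb (1.53) and 313.8 kb (1.32) away, and the nearest 50.8 kb (1.51). Those at 188.9, 128.6, 82.4 and 77.0 kb had signals of 1.12, 0.747, 0.616 and 0.686. Of these 8, the one at 128.6 kb held an FDR interval of the library labelled as replicate 1, down to 0.0114 over 89 bases. The one 3' peak of the library labelled as replicate 1, chr2:9620681-9620880, lay 257.8 kb from the main start with a signal of 0.713, the 25.2nd percentile of its peaks, and held 5 footprints. The library labelled as replicate 2 had no FDR interval there. In its longer list, 2 of the 3 peaks of the library labelled as replicate 1 on the 3' flank overlapped peaks of the library labelled as replicate 2, with signals of 0.165 in the cluster and 0.172 at 128.5 kb.

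On the 5' side the shared regions lay mainly at and near other genes. The promoter of Taf3, which encodes a subunit of the general transcription factor TFIID, had signals of 11.6 in the library labelled as replicate 2 and 6.66 in the library labelled as replicate 1, the 68.7th and 72.7th percentiles among genes. The promoter shared by Atp5c1, a subunit of mitochondrial ATP synthase, and Kin had 13.8 and 6.77, the 78.3rd and 73.9th percentiles. Taf3, Atp5c1 and Kin therefore had like ranks in both libraries, whereas the Gata3 promoter ranked at the 77.6th and 26.4th percentiles. A lower rank in the library labelled as replicate 1 was not particular to Gata3, as other T lineage factor genes below show. How this difference is spread over all genes was not examined. The Itih5 promoter had 1.72 and 0.572 (13.1st and 4.32nd percentiles), and the Itih2 promoter had a peak in the library labelled as replicate 1 alone (1.08). The 5' flank had 5 regions with a peak in that library alone, against 4 in the other alone. Of these 5, those near a start inside Taf3, chr2:9918781-9919020 (1.61) and chr2:9919041-9919420 (1.02), held no FDR interval of the library labelled as replicate 2. At chr2:10047781-10048260 (0.956) that library had an FDR down to 2.85e-13, and at chr2:10094493-10094589 (0.886) no interval. Itih genes encode heavy chains of the inter-alpha-trypsin inhibitor.

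Of the 7 shared 5' regions, 4 were distal. Those in introns of Itih2 had signals of 1.17 in the library labelled as replicate 2 and 2.07 in the library labelled as replicate 1, and of 1.23 and 1.25. The intergenic ones, 264.3 and 410.1 kb upstream of the main start, had 1.55 and 1.23, and 1.36 and 2.64. The core of the CTCF site, searched as CC, 3 unspecified bases, AG, 2 unspecified bases and GGC on both strands, was in 3 of the 4 shared distal peaks and in 0 of 19 distal peaks with no partner in the library labelled as replicate 1. Over the genome it was in 46.4% of 16981 shared distal peaks and 12.7% of 17614 unshared ones in the library labelled as replicate 2. The shared 5' peak shown above had it at bases 22 to 33 and 110 to 121, both inside footprints of the library labelled as replicate 2. A footprint of 37 bp, the widest in the locus, covered the second, and a GATA sequence, AGATAG, lay in it at bases 122 to 127.

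Footprints in the locus numbered 186 in the library labelled as replicate 2 and 81 in the library labelled as replicate 1. By position there were 57 and 5 on the 3' flank, 75 and 25 in the gene body and 54 and 51 on the 5' flank. Of them 122 and 44 lay inside a peak, and their median width was 9 bp in both libraries. Those that overlapped a footprint of the other library numbered 29 (15.6%) and 33 (40.7%), against 39.4% and 35.1% of all footprints. None of the 57 and 5 on the 3' flank did so, and in the gene body 14 and 15 did. Peaks with a footprint numbered 41 of 42 and 13 of 15, against 89.1% and 81.7% of all peaks. A peak in the locus held a mean of 2.93 footprints in both libraries, against 3.15 and 2.81 for all peaks.

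Weaker opening was looked for in the FDR tables where a library had no peak. Of 34 peaks of the library labelled as replicate 2 with no partner, 10 held an FDR interval of the library labelled as replicate 1, against 24.2% of such peaks over the genome, and 2 of them reached an FDR of 0.001 or less. Of 7 peaks of the library labelled as replicate 1 with no partner, 2 held an interval of the library labelled as replicate 2, against 19.6%. Over the locus, bases with an FDR below 0.05 made up 2.89% in the library labelled as replicate 2 and 1.52% in the library labelled as replicate 1, against 1.26% and 1.87% of the genome. By flank they numbered 7508 and 608 on the 3' side, 9669 and 2963 in the gene body and 6870 and 9129 on the 5' side.

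Motifs in the 42 peak windows of the library labelled as replicate 2 are given with their share among the windows of all its peaks. GATA sequences were in 10 (16.2% of all windows), ETS sequences (CAGGAA or CCGGAA or AAGGAA) in 20 (45.4%), RUNX sequences (TGTGGT or TGCGGT) in 11 (21.0%) and E protein sequences (CAGCTG or CAGGTG) in 14 (34.7%). The peak chr2:9877261-9877340 and the peak around it share a midpoint. Their common window, which held an ETS sequence, is counted for each. On the 3' flank, 5 of 13 windows had a RUNX sequence, 6 an ETS sequence, 2 a GATA sequence and 0 the CTCF core. Among all distal peaks of the library labelled as replicate 2 with no partner, 29.2% had a RUNX sequence, 53.7% an ETS sequence, 20.6% a GATA sequence and 12.7% the CTCF core. In the library labelled as replicate 1, GATA sequences were in 5 of 15 windows (22.4% of all) and RUNX sequences in 1 (16.3%). ETS sequences were in 8 of the 15 (40.7%) and E protein sequences in 3 (36.2%). AP-1 sequences (TGANTCA, N being any base) were in 3 of the 15 (5.66%). In the library labelled as replicate 2 they were in 3 of 42 (4.79%).

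Distal peaks over the gene and 400 kb on each side numbered 23 in the library labelled as replicate 2, the 63.5th percentile of all protein-coding genes, whose median was 17. They numbered 6 in the library labelled as replicate 1, the 13.1th percentile, where the median was 25. With flanks of 100 and 200 kb these percentiles were 67.6 and 63.2 in the library labelled as replicate 2, and 5.84 and 3.90 in the library labelled as replicate 1. The difference, replicate 2 minus replicate 1, was 17 for Gata3, rank 366 of 21938 genes, and had a median of -6 over all genes. More distal peaks in the library labelled as replicate 2 than in the library labelled as replicate 1 were found at 18.9% of genes. Genes near each other share peaks, so these ranks are descriptions.

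**Figure D4:**
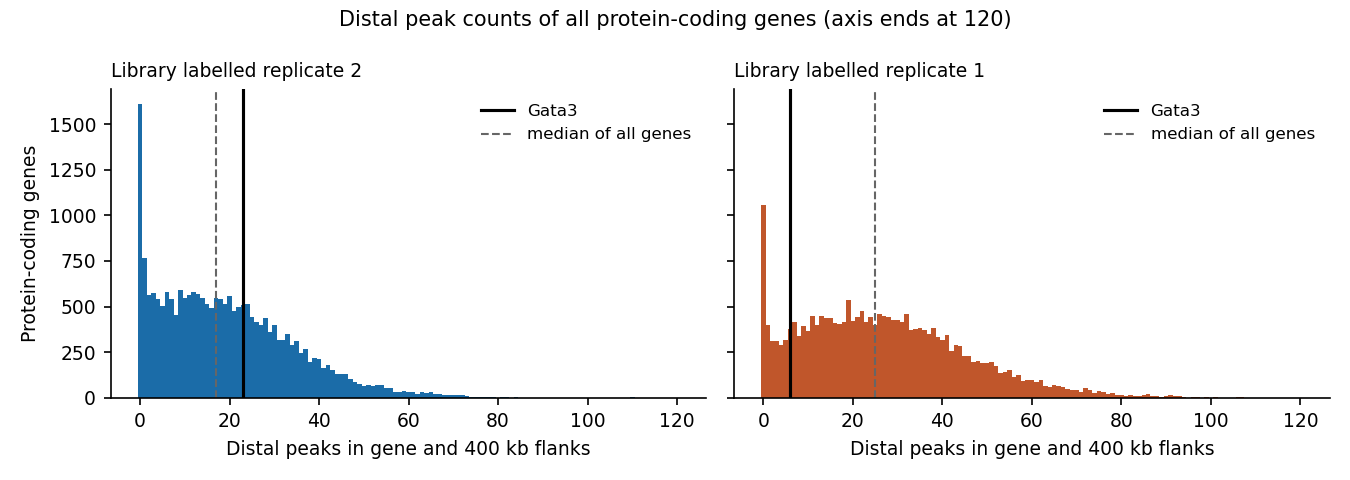
Number of protein-coding genes at each count of distal peaks in the gene and 400 kb flanks, in the library labelled as replicate 2 on the left and the library labelled as replicate 1 on the right, with a solid line at Gata3 and a dashed line at the median of all genes; counts beyond the end of the axis are not drawn. Gata3 stands above the median on the left (23 against 17) and below it on the right (6 against 25).

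Among the 6 GATA family genes Gata3 had the highest promoter signal in the library labelled as replicate 2. Gata1, an erythroid factor, had 0.786 there and no peak in the library labelled as replicate 1. Gata2, which acts in blood progenitors, had none in the library labelled as replicate 2 and 1.07 in the library labelled as replicate 1. Gata4 (none, 4.48), Gata5 (none, 0.533) and Gata6 (0.555, 3.49) are known for roles in heart and endoderm, and each stood higher among promoters in the library labelled as replicate 1. Distal peaks numbered 23 and 51 at Gata4, 24 and 38 at Gata5 and 1 and 33 at Gata6, in the libraries labelled as replicate 2 and replicate 1. Gata1 (17 and 15) and Gata3 (23 and 6) were the family members with more in the library labelled as replicate 2, as were 18.9% of all genes.

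Of 18 T lineage transcription factor genes, Gata3 included, 18 had a promoter peak in the library labelled as replicate 2 and 17 in the library labelled as replicate 1, Bcl11b being the exception. Among all protein-coding genes the shares were 60.1% and 63.1%. Distal peaks were more numerous in the library labelled as replicate 2 at 11 of them and in the library labelled as replicate 1 at 7, with medians of 43.5 and 36.5. Over all 21938 protein-coding genes, 4140 (18.9%) had more in the library labelled as replicate 2 and 16052 in the library labelled as replicate 1. The medians over all genes were 17 and 25. Tcf7 had 133 and 41 distal peaks, Ets1 59 and 15, Satb1 45 and 2 and Lef1 64 and 28. Tcf12 (50 and 61) and Zbtb7b (32 and 44) went the other way. Of 15 partners and targets of GATA3 in T cells, 11 and 7 had a promoter peak, against the 60.1% and 63.1% of all genes. Distal peaks were more numerous in the library labelled as replicate 2 at 4 of the 15 and in the library labelled as replicate 1 at 10, with medians of 32 and 44. Most protein-coding genes (16052 of 21938) also had more in the library labelled as replicate 1, and 18.9% had more in the library labelled as replicate 2. Zfpm1, which encodes the GATA cofactor FOG1, had promoter signals of 24.9 and 12.6, with 48 and 77 distal peaks. Tbx21, the T helper 1 regulator, had 41 and 67 distal peaks. Il4ra, a chain of the interleukin 4 receptor, had 11.3 and 3.75, with 40 and 11 distal peaks. The T helper 2 cytokine genes Il4, Il5 and Il13 and the receptor gene Il1rl1 had no promoter peak in either library.

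**Figure D5:**
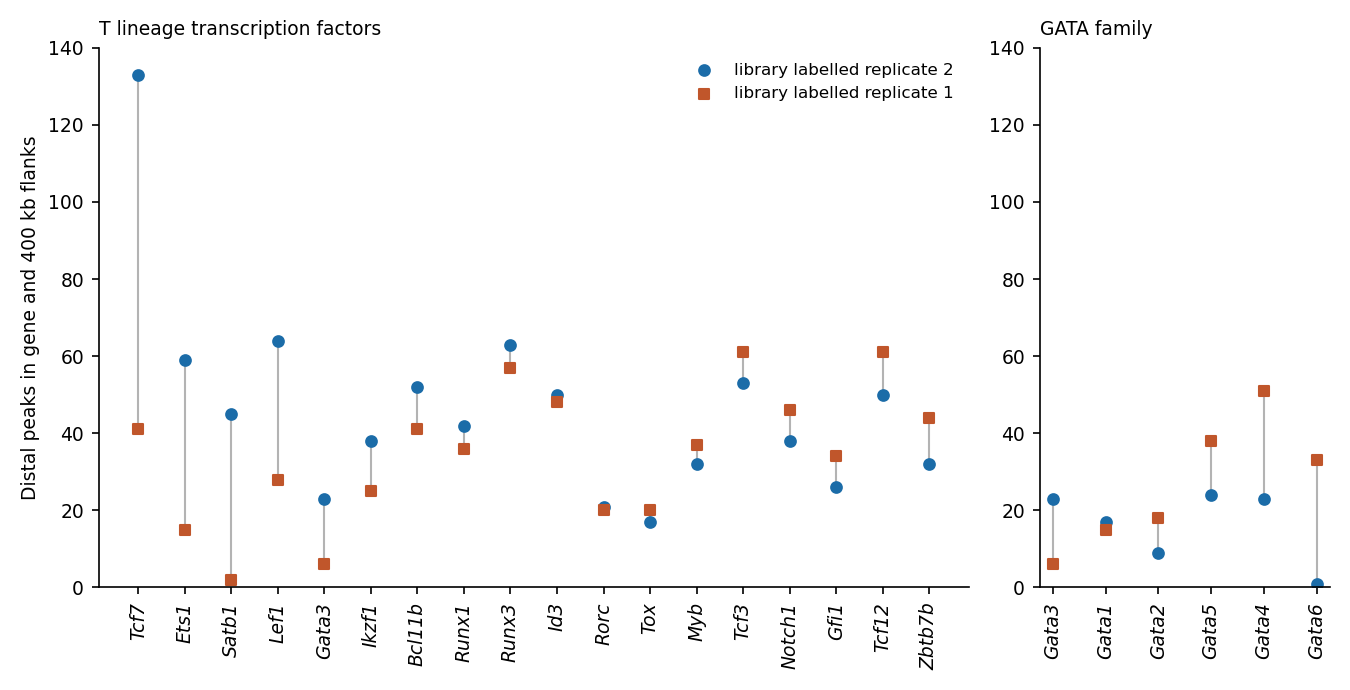
Distal peaks in the gene and 400 kb flanks for T lineage factor genes (left) and the GATA family (right), with circles for the library labelled as replicate 2 and squares for the library labelled as replicate 1, joined by a line for each gene. Gata3 (23 and 6), Tcf7 (133 and 41), Ets1 (59 and 15) and Satb1 (45 and 2) have the circle above the square, and Gata6 (1 and 33) has it below.

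Among the genes whose values were most like those of Gata3, by distance over 4 percentile ranks from 2 libraries and among 21929 genes, were Bzw1 (22.4), Krba1 (22.4), Ehd3 (23.2) and Zfp467 (24.4). Ehd3 had promoter signals of 9.22 and 1.75 and 23 and 9 distal peaks, in the libraries labelled as replicate 2 and replicate 1. Bzw1 had promoter signals of 11.7 and 3.78 and 19 and 14 distal peaks. Krba1 and Zfp467 are neighbours on chromosome 6 and share peaks.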

How the data were processed

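DNase-seq was read from the deposited lists of 2 thymus libraries, which form 1 group. The deposited peak lists give in column 7 a signal for each peak, and the deposited FDR tables give a false discovery rate per interval, listed below 0.05. Column 5 of the deposited footprint lists holds a score of 0.01 in every row, so footprints could not be ranked. Per the file notes every list derives from the filtered mm10 alignment of its own library, not pooled. For the aligner, callers, thresholds and signal scaling, a name or setting was not given in the sources used here. No list holds read counts, so depth is unknown and no interval from counting reads is given. Reads of a B6CASTF1/J hybrid were placed on a reference genome, and how the other parental alleles mapped was not tested.

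Each library has 2 peak lists, and the shorter one was used. Coordinates and sequences are GRCm38.p6 with the GENCODE vM21 annotation. Overlap meant at least 1 shared base, and a promoter peak lay within 1 kb of any annotated start of the gene. Other peaks were distal. Signals were compared within a library only, as percentiles among its peaks or genes. Genes were 21938 protein-coding genes. For counts and shares of windows, motifs were searched on both strands in 200 bp around each peak's midpoint. Positions within the sequences shown come from a search of the whole sequence, so a match there can lie outside the window. No test over samples exists for 1 group of 2 libraries, and none was run. The members and gene lists were chosen with earlier results of these data known. The GGGCGG and CACTAGGGG motifs were added after sequences had been read. The genes named as most like Gata3 were the 5 nearest by Euclidean distance over percentile ranks of promoter signal and distal peak count in both libraries. One of them is not reported here. Counting steps were tested on simulated intervals. Alternatives were other peak lists, flanks, promoter windows, overlaps, footprint widths and FDR limits. Python 3.11.15, numpy 2.4.6, scipy 1.17.1, pysam 0.24.0 and bedtools 2.31.1 were used.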

Additional observations from a re-analysis of the deposited data

How the results depend on the processing

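No paired analysis was possible because the 2 libraries form 1 group. The causes of the changes below were not tested except where fewer or more peaks enter by construction. With the longer peak lists, regions with a peak in both libraries numbered 18 against 8, the window 280 kb 3' of the gene held 12 peaks in the library labelled as replicate 2 and 1 in the library labelled as replicate 1, and the locus held 63 peaks in the library labelled as replicate 2 and 38 in the library labelled as replicate 1, against 42 and 15. With flanks of 200 kb there were 3 shared regions, 29 peaks in the library labelled as replicate 2 and 7 in the library labelled as replicate 1. With the stronger 50% of peaks there were 3 shared regions, 16 and 6 locus peaks in the libraries labelled as replicate 2 and replicate 1, and 3 peaks in the window in the library labelled as replicate 2. With 1 library alone no region can be shared. The regions then numbered 41 in the library labelled as replicate 2 and 15 in the library labelled as replicate 1. A half-width of 15 kb left 1 peak in the window in the library labelled as replicate 2, since the cluster begins 260.5 kb beyond the end of the gene, and measuring from the gene's 5' end put 1 peak of the library labelled as replicate 1 in it. With the gene's most distal start as its only start, promoter signal in the library labelled as replicate 2 was 2.36 against 13.6. With 500 bp windows it was 6.33, and the library labelled as replicate 1 had no Gata3 promoter peak. The percentile of distal peaks ran from 63.2 to 73.7 in the library labelled as replicate 2, against 63.5 as reported, and from 3.90 to 19.4 in the library labelled as replicate 1, against 13.1. Footprints inside a peak numbered 122 and 44, and those at least 10 bp wide 86 and 39, in the libraries labelled as replicate 2 and replicate 1. At an FDR of at most 0.001, 10 of 42 peaks of the library labelled as replicate 2 held an interval of the other library, against 18 as listed. The unknown depth limits every statement that a peak or interval is not listed.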
